A study of Mus musculus with 19 samples.

Results

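The cells described here were Hcrt neurons of the mouse lateral hypothalamic area whose leading gene panel was Prkch, Cxcl14, Car8, Col18a1 and Ednrb, and they are called Prkch Cxcl14 cells below. Wells labelled LHA with at least 1000 detected genes and at least 1% of their counts in Hcrt were scored on 4 panels of 5 genes each, and every cell took the panel with its highest score. A score was the mean, over the 5 genes of a panel, of log-scaled counts per 10000 expressed as z (the distance from the mean of all Hcrt cells in SD). This gave 265 Prkch Cxcl14 cells out of 1068 Hcrt cells, which in turn came from 1534 LHA wells with at least 1000 genes and 1824 wells in all. The other Hcrt cells were 283 Met Sema3e cells (panel Met, Sema3e, Pde3a, Chst8 and Lmo2), 258 Pth2 Hspb1 cells (panel Pth2, Hspb1, S100a11, Synm and Cbln2) and 262 Gpc3 Thbs2 cells (panel Gpc3, Thbs2, Lgals3, Cd44 and Fbxl21).

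All cells came from a single group of animals, 7 male mice that carried Agrp-IRES-Cre and the Ai9 reporter and were 6 to 8 weeks old. Agrp-IRES-Cre drives Cre recombinase in AGRP neurons, in which Ai9 then makes the red protein tdTomato, and the picked cell bodies did not fluoresce. Cells were picked by hand into 19 plates of 96 wells, and their transcripts were counted by Smart-SCRB, a plate method that tags each transcript with a well barcode. The 4 types of Hcrt cell were compared within plates; no label tied a plate to a mouse, so p-values over plates measured only the spread between plates and may be too small.

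Hcrt encodes the precursor of the orexins (hypocretins), a pair of peptides made by neurons of the lateral hypothalamus that promote wakefulness, feeding and reward seeking. Orexin neurons release glutamate and dynorphin beside the orexins, and they project to arousal centres across the brain. Of the genes that chose the cells, Prkch encodes protein kinase C eta, a kinase turned on by diacylglycerol, and Ednrb encodes endothelin receptor B, which couples to Gq and so to the production of diacylglycerol and inositol trisphosphate. Car8 encodes a carbonic anhydrase-related protein without enzyme activity that binds the inositol trisphosphate receptor Itpr1, Cxcl14 encodes a secreted chemokine, and Col18a1 encodes the collagen from which endostatin is cut.

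The 5 genes lie on different chromosomes in the build GRCm38 with the GENCODE M21 annotation. Prkch (ENSMUSG00000021108) is at chr12:73584796-73778185 on the plus strand and Cxcl14 (ENSMUSG00000021508) at chr13:56288643-56296551 on the minus strand. Car8 (ENSMUSG00000041261) is at chr4:8143362-8239041, Col18a1 (ENSMUSG00000001435) at chr10:77052178-77166548 and Ednrb (ENSMUSG00000022122) at chr14:103814625-103844402, all 3 on the minus strand. Promoter sequences from RefSeq (GRCm38.p6) were matched for 3 of the 5 genes, and those of Cxcl14 and Ednrb are shown because these genes chose the cells, with that of Fos, an early response gene whose level differed between the types. Each is the 250 bases before the RefSeq start site, written 5′ to 3′ on the strand of the gene. The Ednrb window lies inside the GENCODE span given above, which begins further upstream than the RefSeq start. Capitals mark TGACGT, the core of the site bound by CREB, and TATAAA, the box that places a start, both searched on either strand.
Cxcl14, chr13:56296552-56296801, minus strand: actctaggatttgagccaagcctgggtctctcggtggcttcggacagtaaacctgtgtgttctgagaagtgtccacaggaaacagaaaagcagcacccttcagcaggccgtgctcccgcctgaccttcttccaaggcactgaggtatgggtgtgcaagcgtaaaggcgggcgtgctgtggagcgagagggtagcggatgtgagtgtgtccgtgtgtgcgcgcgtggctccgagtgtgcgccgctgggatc
Ednrb, chr14:103843702-103843951, minus strand: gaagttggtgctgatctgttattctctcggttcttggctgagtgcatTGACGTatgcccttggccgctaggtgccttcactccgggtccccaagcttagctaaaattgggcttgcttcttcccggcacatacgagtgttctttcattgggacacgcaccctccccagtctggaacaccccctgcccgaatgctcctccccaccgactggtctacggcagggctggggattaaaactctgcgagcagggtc
Fos, chr12:85473640-85473889, plus strand: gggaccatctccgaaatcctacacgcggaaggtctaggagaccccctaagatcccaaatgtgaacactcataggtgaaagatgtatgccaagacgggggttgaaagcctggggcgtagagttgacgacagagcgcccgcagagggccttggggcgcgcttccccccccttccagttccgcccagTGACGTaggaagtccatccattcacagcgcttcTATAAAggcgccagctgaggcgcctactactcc
The Ednrb window held 1 TGACGT, whose first base lay 203 bases before the start site, and the Cxcl14 window held neither motif. The Fos window held TGACGT with its first base 66 bases before the start and TATAAA with its first base 33 bases before it. Of 32851 mouse promoter windows of the same length, 6.47% held TGACGT and 12.4% held TATAAA on either strand. These matches describe the letters only.

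Prkch Cxcl14 cells were found on every plate, with 6 to 25 cells per plate. They made up 24.8% of the Hcrt cells (exact Clopper-Pearson 95% interval 22.2 to 27.5, counting error only), and their share per plate had a lowest value of 16.2%, a median of 24.6% and a highest of 33.8%. Their counts summed to 11267857, of 54185589 in all Hcrt cells, and to between 265121 and 968076 per plate. A plate's LHA wells summed to between 1835746 and 5070306 counts. The same 384 well barcodes were reused, in 4 sets, by more than 1 plate, so a cell was identified by its plate and barcode together.

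The scores ran without a gap from one type into the next. A Prkch Cxcl14 cell had a median score of 0.683 on its own panel, from -0.32 to 2.88, and 17 of the 265 cells led with a score that was not above 0. The own panel led the next by a median of 0.536; 71 cells (26.8%) led by 1 or more, and 77 cells (29.1%) by less than 0.3. The next panel was that of the Met Sema3e cells in 183 cells (69.1%), that of the Gpc3 Thbs2 cells in 49 (18.5%) and that of the Pth2 Hspb1 cells in 33 (12.5%). The 5 cells just inside the limit led by between 0.00029 and 0.0112, and the 5 cells just outside it trailed by between 0.0085 and 0.0320. On the Hcrt limit, the lowest share of counts in Hcrt among Prkch Cxcl14 cells was 1.61%, and the highest among LHA wells under the limit was 0.971%. The plot of panel scores shows this continuum, with red points thinning out toward the dashed line and blue points beginning directly below it.

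**Figure D1:**
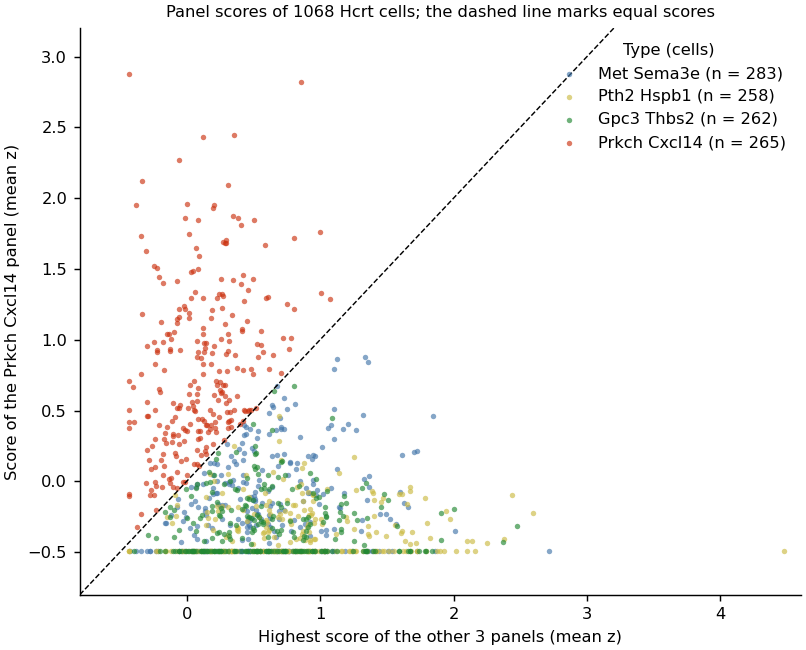
Score of the Prkch Cxcl14 panel (y axis, mean z) against the highest score of the other 3 panels (x axis, mean z), 1 point per Hcrt cell, coloured by the type the cell took. The 265 Prkch Cxcl14 cells (red) lie above the dashed line of equal scores by construction, and 77 of them lie within 0.3 of it.

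Within the type, thinned cells mostly showed some of the panel genes rather than all 5. Sampling at this depth also leaves genes unseen, and its part was not tested. After each cell was thinned to 18000 counts, which left out 19 shallower Prkch Cxcl14 cells, 91 of 246 cells had counts of 2 of the 5 genes, 73 had counts of 3, 51 of 1 and 27 of 4. No cell had all 5, which allows a share of up to 1.22% at a count of 0, and 4 cells had none at this depth. Across all thinned Hcrt cells, Pearson correlations between pairs of these 5 genes ran from 0.0755 to 0.241 with a median of 0.141 over 10 pairs. Pairs of 1 gene from this panel and 1 from the Met Sema3e panel had a median of 0.0198 and a highest value of 0.225. All points share the same libraries and few counts per gene, so these correlations are a description only.

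The values of the 5 panel genes chose the cells and are given without a test, as CPM (counts of a gene scaled to 1000000 counts of all cells of a type on a plate). Prkch had a lowest plate value of 17.4 CPM, a median of 24.9 and a highest of 48.3 in Prkch Cxcl14 cells, with a mean of 28.2 ± 9.44 (SD, n = 19 plates), against plate means of 3.49 ± 3.95 in Met Sema3e cells, 0.352 ± 0.651 in Pth2 Hspb1 cells and 0.663 ± 1.36 in Gpc3 Thbs2 cells. Its plates did not overlap with those of any other type. Cxcl14 ran from 17.1 CPM through a median of 57.0 to 91.0, with means of 58.4 ± 22.2 in Prkch Cxcl14, 9.75 ± 7.28 in Met Sema3e, 4.79 ± 6.23 in Gpc3 Thbs2 and 0.828 ± 1.42 in Pth2 Hspb1 cells. The lowest plate of Prkch Cxcl14 cells lay inside the ranges of the Met Sema3e plates, which reached 22.8 CPM, and of the Gpc3 Thbs2 plates, which reached 25.8 CPM. Car8 ran from 70.3 CPM through 91.7 to 199.9, and its mean was 110.003 ± 39.8 in Prkch Cxcl14 cells, 35.1 ± 14.8 in Met Sema3e cells, 13.5 ± 9.30 in Gpc3 Thbs2 cells and 4.17 ± 3.30 in Pth2 Hspb1 cells, with no overlap. Car8 thus formed a gradient over the other types, with Met Sema3e cells next.

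Col18a1 was at 53.4, 80.2 and 186 CPM in the lowest, median and highest plate of Prkch Cxcl14 cells, with a mean of 90.1 ± 32.8 (SD, n = 19 plates). The other types were close to each other in Col18a1, with means of 21.2 ± 15.0 in Met Sema3e, 21.5 ± 10.7 in Pth2 Hspb1 and 17.03 ± 9.88 in Gpc3 Thbs2 cells. Ednrb was at 15.0, 40.8 and 110.9 CPM in the lowest, median and highest plate, with a mean of 41.3 ± 23.4 against 8.91 ± 6.24, 5.10 ± 4.29 and 9.15 ± 6.13 in Met Sema3e, Pth2 Hspb1 and Gpc3 Thbs2 cells. Hcrt itself was at 132107 ± 16200 CPM in Prkch Cxcl14 cells, and the median share of a cell's counts in Hcrt was 13.1% there, 13.02% in Met Sema3e, 13.96% in Pth2 Hspb1 and 13.7% in Gpc3 Thbs2 cells. Hcrt was thus at about the same level in all 4 types, as the plot of the panel genes shows.

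**Figure D2:**
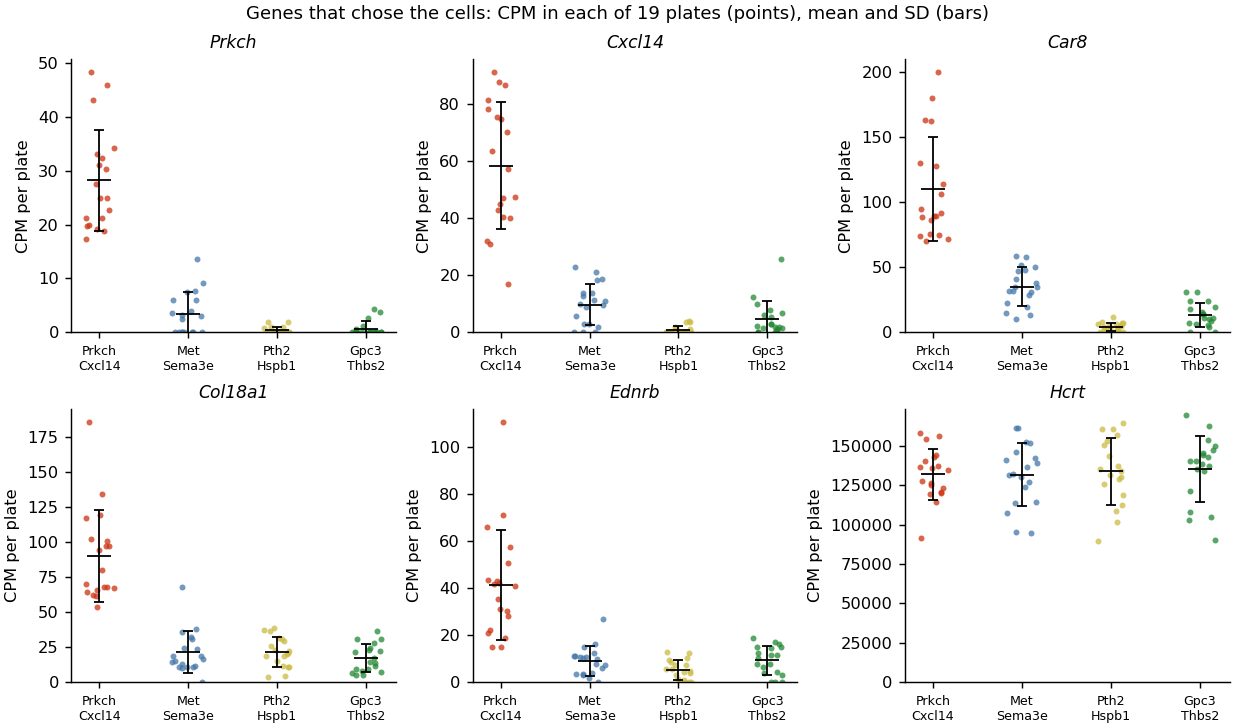
CPM (y axes, linear, from 0) of the 5 genes that chose the Prkch Cxcl14 cells and of Hcrt, 1 point per plate and type, with the mean and SD over 19 plates as bars. Each panel gene is highest in Prkch Cxcl14 cells, because the gene selected them, while Hcrt lies at similar levels in all 4 types.

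Since these levels follow from the choice, the cells were also typed on a random 50% of each cell's counts and the genes were read in the rest, an alternative added after seeing the data. Of the cells typed in this way as Prkch Cxcl14, 86.4% had the same type from the full counts. In the unused counts, Prkch was at 27.2 ± 14.2 CPM in Prkch Cxcl14 cells and 5.16 ± 6.62 in Met Sema3e cells. Cxcl14 was at 50.2 ± 23.5 against 17.1 ± 9.30, Car8 at 108.2 ± 54.6 against 37.2 ± 20.6, Col18a1 at 87.6 ± 34.0 against 20.9 ± 13.4 and Ednrb at 38.1 ± 28.4 against 9.27 ± 5.63 CPM, each with the SD over 19 plates. The panel genes thus differed in the unused counts too. Both parts of the counts came from the same cells, chosen by these same genes, so the values do not test whether the type exists.

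Single cells held few counts of these genes. At 18000 counts per cell, Car8 was seen in 61.0% of Prkch Cxcl14 cells (95% interval 54.6 to 67.1), Col18a1 in 55.3%, Cxcl14 in 47.6%, Ednrb in 36.2% and Prkch in 27.6%. In LHA cells with less than 1% of counts in Hcrt, thinned in the same way, the shares were 16.8%, 4.79%, 3.99%, 1.33% and 1.60%, in the same order. Car8 was thus the one panel gene that was also common outside the Hcrt cells.

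The rest of the transcriptome, which the rule did not use, was compared by nearest neighbours. Over the 15 nearest neighbours of each cell in 30 components of 2000 variable genes, without the 20 panel genes and Hcrt, 55.5% of the neighbours of Prkch Cxcl14 cells were of the same type, against 24.8% of all Hcrt cells. The share lay above 24.8% on 19 of 19 plates (45.6% to 72.7%). A further 33.6% were Met Sema3e cells, which made up 26.5% of all Hcrt cells (above that share on 16 of 19 plates), 8.60% Gpc3 Thbs2 cells and 2.34% Pth2 Hspb1 cells. From the other side, 24.8% of the neighbours of Met Sema3e cells were Prkch Cxcl14 cells, above their share of all Hcrt cells on 9 of 19 plates. Among cells that led by less than 0.3 the share of own neighbours was 37.9%, among those that led by 0.3 to 1 it was 60.3%, and among those that led by 1 or more it was 66.6%. Counts were scaled per cell but not thinned here, and the types differed in counts per cell. The part of depth in these shares was not tested.

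Prkch Cxcl14 cells gave fewer counts than the other Hcrt cells. Their plate medians ran from 17074 to 99111 counts per cell, with a mean of 45459 ± 18778 (SD, n = 19 plates) against 55758 ± 21754 for the other types together. The median was lower than that of the other types on 17 of 19 plates, by a mean difference of -10299 ± 7537 counts (permutation test over plates, two-sided, adjusted p = 9e-05 over 3 measures). By type, the mean of the plate medians was 46771 in Met Sema3e, 55474 in Gpc3 Thbs2 and 71829 in Pth2 Hspb1 cells. The share of counts on ERCC spike-ins, a fixed amount of foreign RNA added to each well, was 3.28% ± 0.67 against 2.71% ± 0.48 and was higher on 18 of 19 plates (difference 0.565, adjusted p = 6e-05 in the same permutation test). By type the mean ERCC share was 3.26% in Met Sema3e, 2.80% in Gpc3 Thbs2 and 2.13% in Pth2 Hspb1 cells, so that of Met Sema3e cells was about the same as in Prkch Cxcl14 cells. Counts per cell were likewise close in these 2 types, and the difference from them alone was not tested. The mitochondrial share was 2.17% ± 0.29 against 2.51% ± 0.32 and was lower on 18 of 19 plates (difference -0.33, adjusted p = 6e-05 in the same permutation test).

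**Figure D3:**
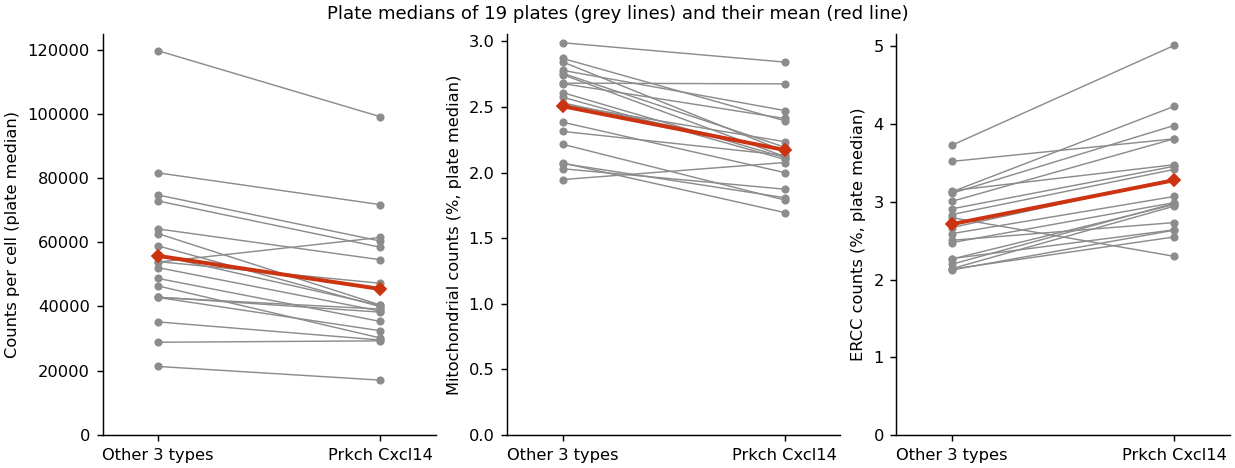
Plate medians of counts per cell, mitochondrial share and ERCC share (y axes, from 0) for the other 3 types together and for Prkch Cxcl14 cells, with a grey line per plate and the mean over 19 plates in red. Counts per cell were lower in Prkch Cxcl14 cells on 17 plates, and the ERCC share was higher on 18.

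Genes outside the 4 panels were tested on counts summed per plate and type. With edgeR's quasi-likelihood test and plate as a block, 382 of 7694 genes (4.96%) were higher in Prkch Cxcl14 cells than in the mean of the other types and 367 (4.77%) were lower, at an adjusted p under 0.05. Of these, 60 were higher and 42 lower by at least 2-fold, and the median log2 fold change of all genes tested was -0.0036. Against single types the counts differed widely: 124 genes were higher (1.61%) and 67 lower (0.871%) than in Met Sema3e cells, 306 higher (3.98%) and 319 lower (4.15%) than in Gpc3 Thbs2 cells, and 596 higher (7.75%) and 684 lower (8.89%) than in Pth2 Hspb1 cells. These counts followed the gap in depth between the types, whose part was not tested. Within cells of 30000 to 60000 counts, a window added after seeing the data that left 133 Prkch Cxcl14 cells, 2.15% of 6290 tested genes were higher and 1.62% lower than in the mean of the other types. The panels had been drawn up with results of these cells known, so these p-values measure how a gene went with the panel over plates, not whether the type exists.

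A set of 55 genes (0.715%) was higher in Prkch Cxcl14 cells than in each of the other types and 36 (0.468%) were lower than in each. Igsf21, a synaptic adhesion protein that binds neurexin, had the largest rise among the 40 genes that were at least 2-fold higher, at 20 CPM or more and on at least 80% of plates. It was at 27.2, 44.8 and 70.9 CPM in the lowest, median and highest plate of Prkch Cxcl14 cells, against means of 13.99 ± 6.46 in Met Sema3e, 4.08 ± 5.25 in Gpc3 Thbs2 and 2.62 ± 2.16 CPM in Pth2 Hspb1 cells. Its plates overlapped only with the highest Met Sema3e plate, at 28.1 CPM. The log2 fold change was 3.16 ± 0.23 (SE) against the mean of the other types (edgeR adjusted p = 2.17e-20, higher on 19 of 19 plates) and 1.79 ± 0.30 against Met Sema3e cells (adjusted p = 1.39e-05).

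Igsf21 lies at chr4:140026846-140246784. Cadm1, another synaptic adhesion molecule, was nearly alike in the other types and higher in Prkch Cxcl14 cells. It was at 39.2, 79.8 and 155 CPM in the lowest, median and highest plate, with means of 33.0 ± 23.6 in Met Sema3e, 29.5 ± 12.6 in Pth2 Hspb1 and 25.6 ± 15.7 in Gpc3 Thbs2 cells, and single plates overlapped. The log2 fold change was 1.43 ± 0.21, 1.45 ± 0.21 and 1.77 ± 0.21 against these in turn (edgeR adjusted p = 8.18e-07, 1.93e-08 and 2.71e-10). Syne2, which encodes nesprin-2 of the nuclear envelope, was higher against each type too, with log2 fold changes of 1.40 ± 0.28, 2.21 ± 0.29 and 1.66 ± 0.29 against Met Sema3e, Pth2 Hspb1 and Gpc3 Thbs2 cells.

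Most other large rises were graded, with Met Sema3e cells between Prkch Cxcl14 cells and the rest. Fxyd7, a subunit that tunes the sodium pump, was at 24.3, 53.2 and 84.2 CPM in the lowest, median and highest plate, against means of 24.1 ± 11.4 in Met Sema3e, 10.1 ± 5.45 in Gpc3 Thbs2 and 3.56 ± 4.55 in Pth2 Hspb1 cells. It did not overlap with the last 2 types. The log2 fold change of Fxyd7 was 2.47 ± 0.21 against the mean of the other types and 1.14 ± 0.26 against Met Sema3e cells (edgeR adjusted p = 3.55e-17 and 0.00371). The fatty acid transporter Cd36 (2.78 ± 0.30), Pdzrn4 (2.36 ± 0.34) and the matrix gene Hmcn1 (2.15 ± 0.24) passed against the mean but missed the threshold against Met Sema3e cells, with adjusted p-values of 0.0938, 0.138 and 0.424. Rprm, a cell cycle inhibitor, was at 82.9, 155 and 199 CPM in the lowest, median and highest plate, with means of 94.9, 46.6 and 9.76 CPM in Met Sema3e, Gpc3 Thbs2 and Pth2 Hspb1 cells, and it passed against each. The small G protein Rasd1 (1.82 ± 0.27), the copine Cpne6 (2.13 ± 0.27) and the membrane collagen Col25a1 (1.86 ± 0.20) also passed against each type.

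**Figure D4:**
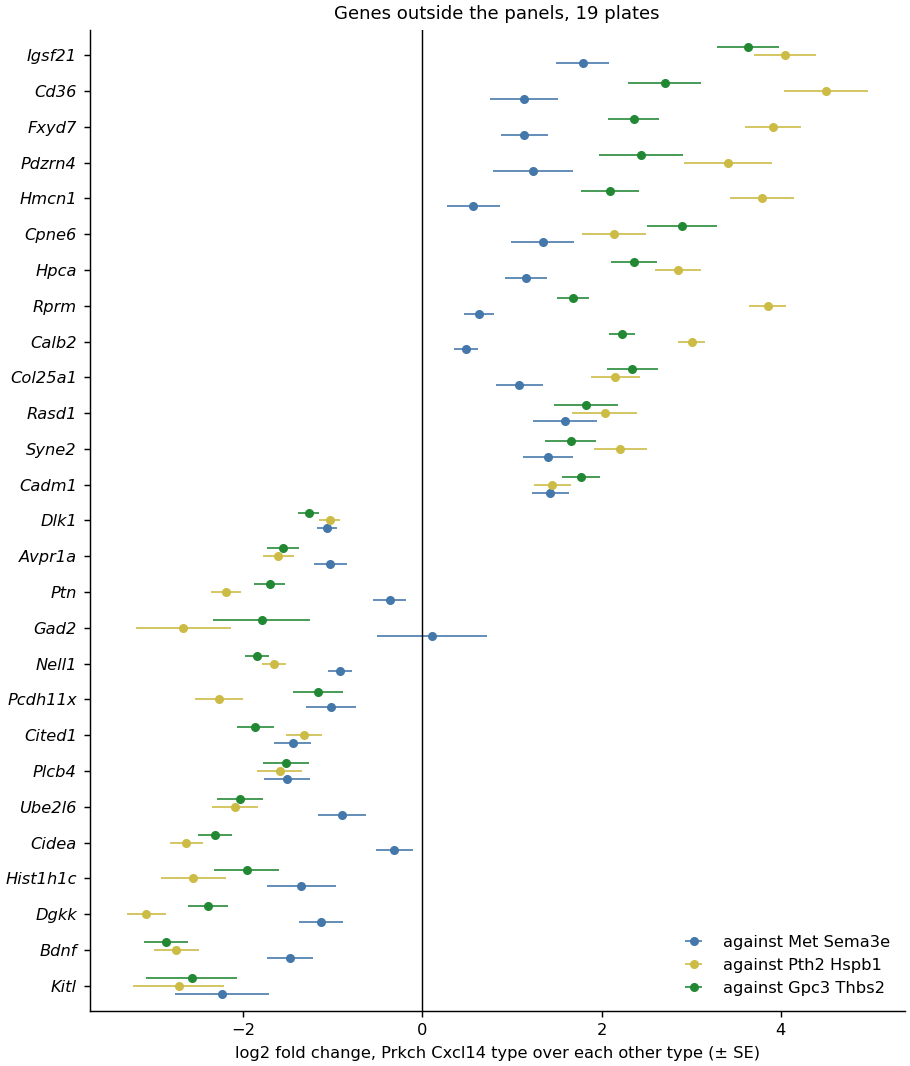
log2 fold change (x axis, ± SE) of Prkch Cxcl14 cells over Met Sema3e (blue), Pth2 Hspb1 (yellow) and Gpc3 Thbs2 cells (green) for the genes with the largest changes and those changed against each type. Differences from Met Sema3e cells were mostly the smallest, as for Hmcn1 (0.57), while for Cadm1, Plcb4 and Dlk1 the 3 values lay close together.

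Among the genes that were lower, Bdnf, the brain-derived neurotrophic factor, had the largest fall among the 23 that met the same limits. It was at 0, 30.7 and 72.1 CPM in the lowest, median and highest plate of Prkch Cxcl14 cells, against means of 87.9 ± 33.9 in Met Sema3e, 203 ± 60.1 in Pth2 Hspb1 and 226 ± 96.9 CPM in Gpc3 Thbs2 cells. All its plates lay below those of Pth2 Hspb1 cells and overlapped with the lower plates of the other types. Its log2 fold change was -2.36 ± 0.22 (edgeR adjusted p = 2.15e-12, lower on 19 of 19 plates), and against Met Sema3e cells -1.48 ± 0.26 (adjusted p = 9.74e-05). Dgkk, a kinase that removes diacylglycerol, the activator of protein kinase C, was at 0, 7.48 and 22.3 CPM in the lowest, median and highest plate, with means of 20.8, 75.1 and 47.4 CPM in Met Sema3e, Pth2 Hspb1 and Gpc3 Thbs2 cells. It fell by 2.202 on the log2 scale (SE 0.20, adjusted p = 2.84e-15).

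Plcb4, the phospholipase C beta that acts below Gq, was lower against each type by nearly the same amount. It was at 0, 12.02 and 18.9 CPM in the lowest, median and highest plate of Prkch Cxcl14 cells, and its means were 30.5 ± 15.8, 31.8 ± 15.4 and 31.7 ± 12.99 in Met Sema3e, Pth2 Hspb1 and Gpc3 Thbs2 cells, with overlap of single plates. The log2 fold changes were -1.51 ± 0.26, -1.60 ± 0.25 and -1.52 ± 0.26 (edgeR adjusted p = 2.02e-05, 3.79e-07 and 3.96e-06). Dlk1, a ligand-like protein of the Notch pathway that also marks orexin neurons, was likewise lower against each type. It was at 86.4, 243 and 540 CPM in the lowest, median and highest plate, with means of 520 ± 118, 500 ± 124 and 588 ± 107.01 in the other types in the same order, and its log2 fold change was -1.12 ± 0.10 (adjusted p = 2.21e-13). Kitl, the ligand of the receptor Kit, had a median plate value of 0 CPM and a highest of 19.2 in Prkch Cxcl14 cells, against means of 8.89, 12.3 and 11.6 CPM, and its log2 fold change was -2.51 ± 0.46 (adjusted p = 2.11e-05). Cited1 (-1.54 ± 0.18), Hist1h1c (-1.96 ± 0.32) and Avpr1a (-1.40 ± 0.15), a vasopressin receptor, also fell against each type. Cidea (-1.75 ± 0.17) and Ptn (-1.42 ± 0.15) passed against the mean and missed the threshold against Met Sema3e cells (adjusted p = 0.583 and 0.406).

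**Figure D5:**
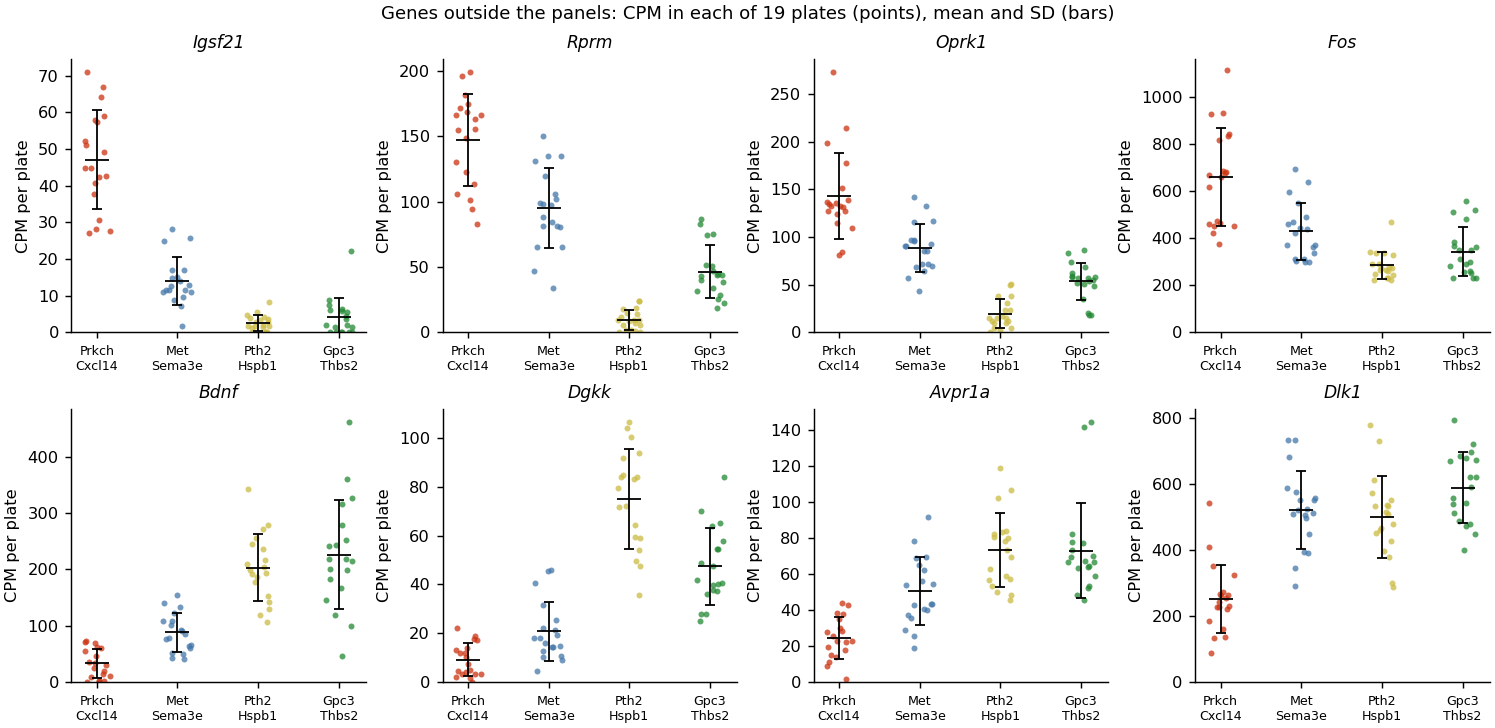
CPM (y axes, linear, from 0) of 4 genes that were higher (top) and 4 that were lower (bottom) in Prkch Cxcl14 cells, 1 point per plate and type, with the mean and SD over 19 plates as bars. Igsf21 at 27.2 CPM or more lies above all Pth2 Hspb1 and Gpc3 Thbs2 plates, while Fos and Dlk1 overlap between all types.

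The remaining genes are described by lists chosen with earlier results of these data known, each against the mean of the other types; the share of all genes called was 4.96% higher and 4.77% lower. Members named beyond the 3 with the smallest p of a list were chosen after their values were seen. Of 20 tested genes that orexin neurons are known to share, 7 were higher and 5 lower. Pdyn, the precursor of dynorphin, was at 1125, 1479 and 1765 CPM in the lowest, median and highest plate of Prkch Cxcl14 cells, against means of 1138 ± 198 in Met Sema3e, 953 ± 207 in Gpc3 Thbs2 and 818 ± 107.98 in Pth2 Hspb1 cells. It did not overlap with the last of these, and its log2 fold change was 0.62 ± 0.05 (edgeR adjusted p = 3.55e-17, higher on 19 of 19 plates). The granin genes Chga (0.35 ± 0.05) and Chgb (0.18 ± 0.04) rose in the same test, whereas Vgf, the precursor of several secreted peptides, fell by 0.84 (SE 0.09) and Nptx2, a secreted pentraxin, by 0.56 (SE 0.07). Of these Nptx2 missed the threshold against Met Sema3e cells (-0.22, adjusted p = 0.134) and the others passed. Lhx9, a transcription factor of orexin neurons, had a log2 fold change of 0.17 (adjusted p = 0.166), and Slc17a6, the vesicular glutamate transporter, one of 0.13 (adjusted p = 0.379). Scg2 had a log2 fold change of 0.12 (adjusted p = 0.0374), which lost the threshold without any 1 of replicates 1, 4, 7, 9, 11, 15 or 19. Of the single types it passed only against Pth2 Hspb1 cells (0.30, edgeR adjusted p = 8.75e-07). Its values were -0.02 against Met Sema3e (edgeR adjusted p = 0.93) and 0.07 against Gpc3 Thbs2 cells (edgeR adjusted p = 0.469).

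Genes on the path from Gq to protein kinase C and calcium were called in both directions. Over all genes tested, 4.96% were higher and 4.77% lower. Of 15 tested genes of the Gq and calcium store list, Plcb4 and Ryr3 were lower and Atp2b1 higher, and of 9 of the protein kinase C list, Prkce (0.48 ± 0.15) and the kinase substrate Marcksl1 (0.30 ± 0.07) were higher and none lower. Itpr1, the receptor that the Car8 protein binds, had a log2 fold change of -0.24 (edgeR adjusted p = 0.534), with 23.9 ± 10.4 CPM in Prkch Cxcl14 cells. Ryr3 (-0.92, adjusted p = 0.0493) lost its call in 11 of the 15 fits that each left out 1 plate and still tested it, and Prkce without replicate 12. Atp2b1 was instead lower against Met Sema3e cells (-0.32, adjusted p = 0.000838), and Ryr3, Prkce and Marcksl1 missed the threshold. Within the window of 30000 to 60000 counts no gene of the protein kinase C list was called, Atp2b1 had a log2 fold change of 0.04, and of the Gq list only 1 gene was called. The other carbonic anhydrase-like genes Car10 (0.69 ± 0.13) and Car11 (0.55 ± 0.16) were higher, 2 of 3 tested, and Car11 lost its call without replicate 5 or 10. Against Met Sema3e cells neither passed, with log2 fold changes of -0.13 for Car10 (adjusted p = 0.835) and 0.31 for Car11 (adjusted p = 0.584).

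The endothelin genes Edn1 and Edn3 and the receptor genes Ednra, Cxcr4 and Ackr3 were near 0. All Prkch Cxcl14 cells together held 2 counts of Edn1 and 2 of Edn3, which encode endothelins, and 3 of Ednra, the other endothelin receptor. They held 2 counts of Cxcr4 and 4 of Ackr3, chemokine receptors. None of these genes passed the count filter in any type, so none was tested, and at this depth such counts do not separate a low level from none. The orexin receptor gene Hcrtr2 had 10 counts in 6 Prkch Cxcl14 cells, 14 counts in 5 Met Sema3e cells, 51 in 22 Gpc3 Thbs2 cells and 159 in 55 Pth2 Hspb1 cells, and it was not tested either. Qrfp, a peptide gene of the lateral hypothalamus, had 264 counts, which came from 17 of the 265 cells with up to 96 counts in 1 cell. Its median plate value was 1.60 CPM and its highest 211 CPM in Prkch Cxcl14 cells, so a few cells held nearly all of it. In Gpc3 Thbs2 cells, 196 counts came from 42 cells with at most 40 in 1 cell.

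Receptor genes moved in both directions. Of 10 tested peptide receptor genes, Oprk1 and Crhr2 were higher and Avpr1a lower. Oprk1, the kappa opioid receptor on which dynorphin acts, was at 81.7, 133 and 273 CPM in the lowest, median and highest plate of Prkch Cxcl14 cells, against means of 88.9 ± 25.3 in Met Sema3e, 53.6 ± 19.4 in Gpc3 Thbs2 and 19.6 ± 15.3 in Pth2 Hspb1 cells. Its plates overlapped with all but the Pth2 Hspb1 cells, and its log2 fold change was 1.69 ± 0.15 (edgeR adjusted p = 7.8e-15, higher on 19 of 19 plates) and 0.70 ± 0.19 against Met Sema3e cells (adjusted p = 0.0208). Of 5 monoamine and acetylcholine receptor genes, the serotonin receptors Htr2c (1.12 ± 0.17) and Htr1a (0.67 ± 0.18) were higher and the adrenergic receptor Adra1b (-1.003 ± 0.22) lower. Against Met Sema3e cells none of these 3 passed, with log2 fold changes of -0.06 for Htr2c (adjusted p = 0.962), 0.24 for Htr1a and -0.52 for Adra1b, and Crhr2 had one of -0.04. Of 8 neuropeptide and neurotrophin genes, Bdnf and Penk were lower; Penk, the enkephalin precursor, fell by 1.43 (SE 0.24) against Met Sema3e cells but had a log2 fold change of 0.26 (adjusted p = 0.56) against Pth2 Hspb1 cells.

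Of 24 tested potassium channel genes, 9 were higher and none lower, with a median log2 fold change of 0.26 over the list. Kcnip1, a subunit of A-type potassium channels, was at 59.1, 78.8 and 106.04 CPM in the lowest, median and highest plate, against means of 57.2 ± 20.6 in Met Sema3e, 31.3 ± 15.3 in Gpc3 Thbs2 and 27.8 ± 15.4 in Pth2 Hspb1 cells, and single plates overlapped with every type. Its log2 fold change was 1.09 ± 0.14 (edgeR adjusted p = 3.32e-09, higher on 19 of 19 plates). Kcnd2 (1.16 ± 0.26), the A-type channel itself, its partner Kcnip2 (0.90 ± 0.19) and the delayed rectifier Kcnb2 (1.09 ± 0.20) were also higher, as were Abcc8 and Kcnj11, the subunits of the ATP-sensitive potassium channel (0.67 ± 0.18 and 0.63 ± 0.21), the last without a call in 9 of the 19 fits that left out 1 plate. Fits that left out 1 plate called 6 to 9 members as higher. None of the 24 was called against Met Sema3e cells, and in the window of 30000 to 60000 counts 2 of 19 were called. Of 25 sodium, calcium, HCN and TRP channel genes, only Scn3b (0.23 ± 0.06) was higher and only Scn9a (-0.34 ± 0.09) lower, and Scn3b alone of these passed against Met Sema3e cells. Of 16 glutamate receptor genes, 4 were higher and none lower, Gria3 (1.93 ± 0.32), Gria1 (0.47 ± 0.08), Grin3a (0.63 ± 0.15) and Grm5 (0.63), the last without a call in 10 of the 19 fits that left out 1 plate. None of these 4 passed against Met Sema3e cells, where Gria3 had a log2 fold change of 0.86 (adjusted p = 0.33), Gria1 one of -0.05, Grin3a one of 0.04 and Grm5 one of 0.68. Of 11 GABA and glycine receptor genes, only Gabbr1 (-0.24 ± 0.06) was called, and it missed the threshold against Met Sema3e cells (adjusted p = 0.0705). Gad2, whose enzyme makes GABA, had a log2 fold change of -1.45 (edgeR adjusted p = 0.0438) that lost the threshold in 16 of the 19 fits that left out 1 plate.

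Calcium-binding proteins included the gene with the smallest adjusted p of the lists, Calb1. Of 10 tested genes, 4 were higher and 3 lower. Calb1, calbindin, was at 1403, 1679 and 2483 CPM in the lowest, median and highest plate of Prkch Cxcl14 cells, against means of 1473 ± 145 in Met Sema3e, 906 ± 130 in Gpc3 Thbs2 and 760 ± 127 in Pth2 Hspb1 cells, and it did not overlap with the last 2. Its log2 fold change was 0.79 ± 0.04 (edgeR adjusted p = 1.33e-29). Calb2, calretinin, was at 444, 658 and 1059 CPM in the lowest, median and highest plate, with means of 467 ± 106.94, 138 ± 45.8 and 82.3 ± 50.1 in the other types in the same order. Its log2 fold change was 1.91 ± 0.10, and 0.49 ± 0.13 against Met Sema3e cells (adjusted p = 1.75e-21 and 0.028). Hpca, hippocalcin, rose by 2.12 ± 0.18 and Vsnl1 by 0.62 ± 0.14, whereas Necab2 fell by 0.59 (SE 0.09). Hpca and Necab2 also passed against Met Sema3e cells, where Vsnl1 had a log2 fold change of -0.04 (adjusted p = 0.97).

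Of 52 tested axon guidance and adhesion genes, 14 were higher and 8 lower. Tenm2, a teneurin of the synapse, was at 93.5, 186 and 253 CPM in the lowest, median and highest plate, against means of 96.4 ± 33.9 in Met Sema3e, 58.8 ± 19.5 in Pth2 Hspb1 and 49.3 ± 18.6 in Gpc3 Thbs2 cells. The log2 fold change was 1.498 ± 0.10 against the mean and 0.97 ± 0.13 against Met Sema3e cells (edgeR adjusted p = 1.14e-21 and 1.61e-07). The guidance cue Slit1 (1.52 ± 0.32), Lrrtm1 (1.12 ± 0.20) and Pcdh15 (0.71 ± 0.11) were higher, while Cntn4 (-2.16 ± 0.39), Pcdh11x (-1.49 ± 0.24) and Pcdh8 (-1.12 ± 0.26) were lower. Only Pcdh11x (-1.02) and Pcdh8 (-1.84) of these 6 passed against Met Sema3e cells, and the values were 0.87 for Slit1, -0.05 for Lrrtm1, 0.17 for Pcdh15 and -1.03 for Cntn4. Pcdh11x passed against each type, whereas Pcdh8 had a log2 fold change of -0.06 against Pth2 Hspb1 cells (edgeR adjusted p = 0.945). Of 17 hypothalamic transcription factors, Foxp2 (1.55 ± 0.21) and Rorb (0.53 ± 0.11) were higher and Tcf4 (-0.66, adjusted p = 0.0423) lower, the last without a call in 11 of the 19 fits that left out 1 plate. Against Met Sema3e cells Foxp2 had a log2 fold change of 0.19 (adjusted p = 0.839), Rorb one of -0.11 and Tcf4 one of -0.46, and none passed.

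Of 11 tested immediate early genes, which neurons switch on within minutes of activity or handling, 7 were higher and none lower, with a median log2 fold change of 0.68 over the list. Fos was at 376, 670 and 1118 CPM in the lowest, median and highest plate of Prkch Cxcl14 cells, against means of 430 ± 120 in Met Sema3e, 344 ± 104.996 in Gpc3 Thbs2 and 285 ± 58.8 in Pth2 Hspb1 cells. The ranges overlapped between plates, but within a plate Fos was higher in Prkch Cxcl14 cells than in the mean of the other types on 19 of 19. Its log2 fold change was 0.89 ± 0.08, and 0.60 ± 0.10 against Met Sema3e cells (edgeR adjusted p = 5.63e-13 and 7.59e-05). Nr4a1 (1.62 ± 0.25), Junb (1.20 ± 0.19) and Egr1 (1.03 ± 0.15) were higher too, as were Fosb, Fosl2 and Dusp1. Against Met Sema3e cells Junb, Egr1 and Fosb passed and Nr4a1, Fosl2 and Dusp1 did not. Fosb missed the threshold against Pth2 Hspb1 and Gpc3 Thbs2 cells (edgeR adjusted p = 0.633 and 0.22). Nr4a1 passed against both of these (edgeR adjusted p = 0.000206 and 9.02e-08). Of the members called, Fosb lost its call in 6 and Dusp1 in 8 of the 19 fits that left out 1 plate. In the window of 30000 to 60000 counts 3 of 8 tested members were higher and none lower, with a median of 0.67, and fits that left out 1 plate called 5 to 8 as higher. Of 14 members with a promoter in RefSeq, 7 held TGACGT in the 250 bases before at least 1 of their start sites. Among them were Dusp1 and Btg2, of which Btg2 was not called. No such match was found for Junb, Nr4a1, Fosb or Fosl2. Over all mouse promoter windows the share was 6.47%, counted per window and not per gene, so the shares are not alike in unit.

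The pan-neuronal and release lists held calls in both directions. Of 8 pan-neuronal genes, Snap25 (-0.39 ± 0.05), Stmn2 (-0.25 ± 0.04), Elavl4 (-0.35 ± 0.08) and Map2 (-0.28 ± 0.08) were lower and Syt1 (0.24 ± 0.07) higher, the last without a call when replicate 4, 15 or 18 was left out, and of 23 genes of synaptic release 1 was higher and 3 lower, among these Cplx1 (-0.84 ± 0.15). Against Met Sema3e cells Cplx1 was also lower (-0.89, adjusted p = 0.00062), while Snap25, Stmn2, Elavl4, Map2 and Syt1 missed the threshold. Markers of other cells were looked at beside these results. Of the 10 genes of the oligodendrocyte list all had counts, and their sum ran from 23.9 through a median of 69.4 to 3846 CPM over plates in Prkch Cxcl14 cells and from 19.6 to 4778 CPM in the other types. The highest plate, replicate 13, held the only Prkch Cxcl14 cell in which a list of another cell type outweighed the pan-neuronal genes, against 10 such cells in the other types. Astrocyte genes summed to between 1.55 and 53.2 CPM per plate, with Slc1a2 (1.30 ± 0.27) higher, microglial genes to between 12.5 and 63.5 with C1qa and C1qb at 0, and endothelial genes to between 65.3 and 255 with Cldn5 and Ly6c1 at 0 and Egfl7 (0.36 ± 0.11) higher, a call lost without replicate 15. Slc1a2 and Egfl7 did not pass against Met Sema3e cells (0.06 and 0.02). Without the non-neuronal wells 399 genes were higher and 354 lower than in the mean of the other types. Pmch, the gene of melanin-concentrating hormone, whose neurons lie among the orexin neurons, was at 0, 209 and 871 CPM in the lowest, median and highest plate, with a log2 fold change of -0.48 ± 0.37 (adjusted p = 0.489).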

How the data were processed

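The deposited table holds counts per gene and well for 19 plates, and the deposited well table holds values per well that the authors computed, among them the number of genes detected, the total and the ERCC spike-in percent. These 3 matched the count table in all wells with any count. Per the submitters' processing notes, bcl2fastq 2.20, cutadapt 2.1.0, STAR 2.7.5c, STARsolo 2.7.5c, Seurat 2.3.4 and R 3.4.3 were used with the build GRCm38; the annotation, the strand setting and how molecular identifiers were collapsed are not given in the sources used here. Of 52636 mouse gene identifiers 99.7% were found in GENCODE M21, and sequences are from RefSeq. Plates are numbered 1 to 19 in the order of the series and carry no pairing.

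The members and gene lists were chosen with earlier results of these data known. ERCC rows, transgene rows and wells outside the rule were left out of the comparisons, and doublets were not called, because a person placed each cell in its well. Counts were summed per plate and type (at least 3 cells) and fitted in edgeR 4.0.16 by its robust quasi-likelihood F test after TMM scaling and filterByExpr (type and plate as terms, 1 fit over all 76 sums). p-values were adjusted by Benjamini-Hochberg across the 7694 genes outside the panels and Hcrt, with 0.05 as the threshold. A standard error is the absolute log2 fold change divided by the square root of F. Fold changes are on the TMM scale and differ from ratios of CPM. Genes named passed this threshold with a log2 change of 1 or more, 20 CPM in the higher group and 1 direction on 80% of plates (the 12 largest each way), were among the 8 largest called against each type in 1 direction, were up to 3 members of a list by smallest p, or belonged to a fixed set (the panel genes, Hcrt, Pdyn, Scg2, Nptx2, Vgf, Lhx9, Slc17a6, Pmch, Edn1, Edn3, Ednra, Itpr1). Predicted and mitochondrial genes were not named, and 2 genes are not reported here. Plate medians were compared by flipping the signs of plate differences 100000 times. On simulated data of the comparison with the mean of the other types (7379 genes), the fit recovered 76.8% of genes changed 1.5-fold, 98.2% of those changed 2-fold and all changed 4-fold, and called 7 of 7210 unchanged genes. The simulated counts had the same spread for every gene and no plate effect. Only genes above a minimum of summed counts were changed, so these rates do not describe genes with few counts or a larger spread. Alternatives were DESeq2 1.42.0, other size factors, no count filter, no plate block, at least 5 cells, Hcrt at 5% or more, a lead of 0.3 or more, scores from counts thinned to 18000, non-neuronal wells left out and each plate left out; 3 more were added after seeing the data.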

Additional observations from a re-analysis of the deposited data

Results flagged for a closer look

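The count table also holds rows for transgene sequences that no comparison used. WPRE, a viral element that the Ai9 reporter carries behind tdTomato, had 137 counts in 72 of 265 Prkch Cxcl14 cells (27.2%), against 3 counts in 1 of the wells that held no cell (0.962% of them). It was also counted in 23.3% of Met Sema3e, 38.8% of Pth2 Hspb1 and 36.3% of Gpc3 Thbs2 cells, which had more counts per cell in the last 2 types. tdTomato itself had no count in any of the 265 Prkch Cxcl14 cells, which allows a share of cells with a count of up to 1.13%, and CreNLS had 3 counts in 3 cells. The signal was picked out because it lies outside the main measurement and above the wells without a cell.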

How the results depend on the processing

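Against the mean of the other types, no named gene that was called in either fit changed direction under any alternative that tested it. Neither did the 3 measures of cells under theirs. Directions against single types were not compared between alternatives. Counts of genes called are given here as a percent of the 7694 genes tested in the plate-blocked fit. Without the replicate block for plate, 2.78% were lower in Prkch Cxcl14 cells than in the mean of the other types, 0.754% were higher and 0.429% lower than in Met Sema3e cells, and 2.68% were lower than in Gpc3 Thbs2 cells; the other counts stayed within 1.5 times. DESeq2 called 1.51% as lower than in Met Sema3e cells. In cells of 30000 to 60000 counts, chosen after seeing the data, 1.75% were higher and 1.33% lower than in the mean, 0.377% and 0.403% against Met Sema3e, 2.35% and 2.38% against Pth2 Hspb1 and 1.16% and 0.910% against Gpc3 Thbs2 cells; this window holds fewer cells and 6290 genes, so depth and cell number cannot be told apart in it. With types from a random 50% of the counts and genes from the rest, also chosen after seeing the data, 5.74% were lower than in Pth2 Hspb1 cells. That fit tested only 5520 genes, and 8.01% of those were lower. Leaving out each plate gave 4.19% to 5.22% higher and 3.83% to 4.80% lower against the mean, 1.33% to 1.69% and 0.728% to 1.03% against Met Sema3e, 7.12% to 7.97% and 7.81% to 8.83% against Pth2 Hspb1, and 3.54% to 4.39% and 3.52% to 4.48% against Gpc3 Thbs2 cells. The difference in counts per cell then ran from -11298 to -9637, in mitochondrial percent from -0.36 to -0.31 and in ERCC percent from 0.525 to 0.624. Among the named genes, 19 that were tested in the window of 30000 to 60000 counts lost their call there, among them Scg2, Atp2b1, Syt1, Prkce, Kcnip2 and Gad2. The simulated data had the library sizes of the plate-blocked fit and not those of this window. In them 1.5-fold changes were recovered less often than larger ones, which does not speak to the calls lost in the window. The part of depth in those lost calls was not tested.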
